A study of Mus musculus with 6 samples.

Results

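The genes described here are the cyclins, the cyclin-dependent kinases (CDKs) with their inhibitors and binding proteins, the Mcm subunits of the replicative helicase and the Cdc genes, in mouse hippocampus. They were chosen by name: every probe set with exactly 1 gene symbol in the platform annotation whose symbol is that of a numbered cyclin, Ccnc, Ccnh, a numbered Cdk gene, a Cdkn gene, a numbered Mcm gene or a numbered Cdc gene. Ccnd2 and the Cdc42 genes were left out. The rule found 76 probe sets of 60 genes, out of 8251 named genes on the array, and each gene was represented by the probe set with the highest mean over the 6 arrays. Ccnb1, Ccnh and Cdk6 were not analysed here. In 3 of the 60 genes (Cdc25c, Cdkn1b and Mcm3) the probe set used has a name that marks shared or less specific probes.

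The arrays were made for work on mice with extra HuD, an RNA-binding protein of neurons whose gene is Elavl4. All 6 samples are total RNA of hippocampus, each on its own array, and the labels do not tell which came from an overexpressing mouse. The sources used here give no strain, age or transgene promoter, and do not say whether animals were pooled. No sample was therefore put in a group, no genotypes were compared and no test between groups was run, and samples carry the numbers 1 to 6 of their titles. Differences between samples are therefore single observations without replication.

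Cyclins bind CDKs and switch them on. D cyclins with Cdk4 and E cyclins with Cdk2 carry a cell out of G1, A and B cyclins with Cdk1 and Cdk2 drive S phase and mitosis, and the Cdkn proteins block these kinases. The Mcm proteins form the ring-shaped helicase that Cdc6 helps to load at replication origins, a step called licensing, which Cdc7 and Cdc45 then turn into firing. Mature neurons do not divide, and in the adult hippocampus cell division is known chiefly from the progenitors of the dentate gyrus and from glia. Several genes of these families serve other ends: Cdk5 with its activator Cdk5r1 acts in neurons, and Cdk7, Cdk8 and Cdk9 with their cyclins act on RNA polymerase II. Transcripts of Cdkn1a and of some cyclins are among those reported to be bound by proteins of the Elav family.

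Genes of DNA replication are textbook targets of the E2F transcription factors, so the promoters were searched for E2F words, and 4 of them are shown to set 2 Mcm genes and Cdk1 beside Cdk9, the expressed transcription kinase with the widest differences between samples. Each is the 250 bases before the RefSeq start site (GRCm38.p6), 5′ to 3′ on the strand of the gene. Capitals mark every match, on either strand, to an E2F word (TTTCGCGC, TTTGGCGC, TTTCCCGC or TTTGCCGC), to a CHR word (TTTGAA or TTCGAA, a cell-cycle element of mitotic genes) or to CCAAT. Mcm5 lies on the plus strand at chr8:75109259-75109508, and Mcm6, Cdk1 and Cdk9 on the minus strand at chr1:128359706-128359955, chr10:69352913-69353162 and chr2:32712785-32713034.
Mcm5: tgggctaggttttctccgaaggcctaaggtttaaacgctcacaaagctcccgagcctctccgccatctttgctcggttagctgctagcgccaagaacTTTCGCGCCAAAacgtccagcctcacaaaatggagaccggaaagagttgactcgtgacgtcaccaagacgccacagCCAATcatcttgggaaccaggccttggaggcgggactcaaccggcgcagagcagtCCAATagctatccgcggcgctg
Mcm6: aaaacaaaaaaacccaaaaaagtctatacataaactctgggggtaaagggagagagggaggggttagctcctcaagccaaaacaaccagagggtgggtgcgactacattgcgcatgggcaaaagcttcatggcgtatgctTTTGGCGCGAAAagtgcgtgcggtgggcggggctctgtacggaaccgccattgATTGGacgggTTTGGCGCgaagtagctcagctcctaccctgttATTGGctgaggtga
Cdk1: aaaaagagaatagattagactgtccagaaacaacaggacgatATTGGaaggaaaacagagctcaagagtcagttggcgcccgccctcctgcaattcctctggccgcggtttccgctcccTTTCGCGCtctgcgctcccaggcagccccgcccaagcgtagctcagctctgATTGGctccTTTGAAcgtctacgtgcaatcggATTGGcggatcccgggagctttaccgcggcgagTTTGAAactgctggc
Cdk9: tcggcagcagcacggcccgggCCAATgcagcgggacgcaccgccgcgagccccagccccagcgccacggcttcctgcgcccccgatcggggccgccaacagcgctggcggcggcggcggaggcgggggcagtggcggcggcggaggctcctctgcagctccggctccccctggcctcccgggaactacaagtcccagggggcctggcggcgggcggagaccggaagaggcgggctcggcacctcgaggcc
In Mcm5 and Mcm6 a pair of E2F words on opposite strands overlap, starting 153 and 149 bases before the start site in Mcm5 and 110 and 106 in Mcm6, which has a further word at 47. Cdk1 has an E2F word at 131 and CHR words at 71 and 15, and Cdk9 has neither, only a CCAAT at 229.

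Promoters were at hand for 51 of the 60 genes, not for Ccna2, Ccnd1, Ccne2, Cdc23, Cdc25c, Cdk5, Cdk5r1, Cdkn1c and Mcm4. Where a gene has several start sites, the first one in the order of the RefSeq table was used. An E2F word stood in 8 of the 51 promoters (15.7%), against 1.91% of all 27025 promoters and 3.18% of the 6572 promoters of genes named on the array. The 8 genes were Mcm5, Mcm6, Mcm7, Cdc6, Cdk1, Cdk2, Cdc25a and Cdkn2a. Of these, Mcm5 and Cdc25a were expressed by the definition given below, as were 31 of all 51 genes with a promoter. CCAAT was found in 29 of the 51 (56.9%, against 34.5% of all promoters and 35.8% of those on the array), and a CHR word in 9 (17.6%, against 17.4% and 13.2%). A match describes these letters only and is not a binding site.

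The deposited values are signal intensities on a linear scale. For folds and ranges the signals of an array were divided by that array's median (59.9 to 63.3), values under 0.2 of it were set to that floor, and log2 was taken, so that 0 is the array median. A gene is called expressed here when its median over the 6 samples lies above 0, and its range is the highest minus the lowest sample on the log2 scale. The array median is not a limit of detection, and signals depend on the probes as well as on the RNA, so no gene is ranked against another by level. Neuronal markers were present, as the label hippocampus calls for, with 6 of 6 measured genes expressed (Snap25, Syt1, Nefl, Stmn2, Camk2a and Gad1). Camk2a differed widely between samples, from 275 in sample 3 to 1016 in sample 5. Of all named genes 58.6% were expressed. Of 7 markers of dividing cells (Mki67, Top2a, Birc5, Aurka, Aurkb, Bub1 and Rrm2) 0 were expressed, Top2a and Bub1 lay at the floor on every array, and Mki67 had signals from 33.8 to 55.2. In whole tissue, fewer cells of a type and less RNA per cell cannot be told apart.

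Of the 60 genes 36 (60.0%) were expressed, close to the 58.6% of all named genes. The counts by role list follow, though a place above or below the line depends on the probes as well as on the RNA. All 5 Cdc genes of the anaphase-promoting complex and ubiquitin transfer, all 3 cyclins of transcription and splicing, and 8 of 9 neuronal and atypical kinases with their partners were expressed. Of the Mcm helicase list 1 of 7 was expressed, of the Cdc genes of licensing and firing 0 of 3, of the CDK inhibitors 2 of 8. Of the cell-cycle kinases it was 1 of 3, of the G1 cyclins 3 of 4 and of the A and B cyclins 2 of 3. The transcription kinases gave 3 of 4, other cyclins 2 of 3, Cdc25 phosphatases 1 of 2 and other Cdc genes 3 of 4. Both genes in no role list, Cdkn2aipnl and Mcm3ap, were expressed. Among the 24 genes that were not expressed, 17 had all 6 values below the array median and 5 of these (Ccna1, Ccnb1ip1, Ccne2, Cdk1 and Cdkn3) lay at the floor throughout. Differences between samples in these dim genes are not shown to be above background.

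**Figure D1:**
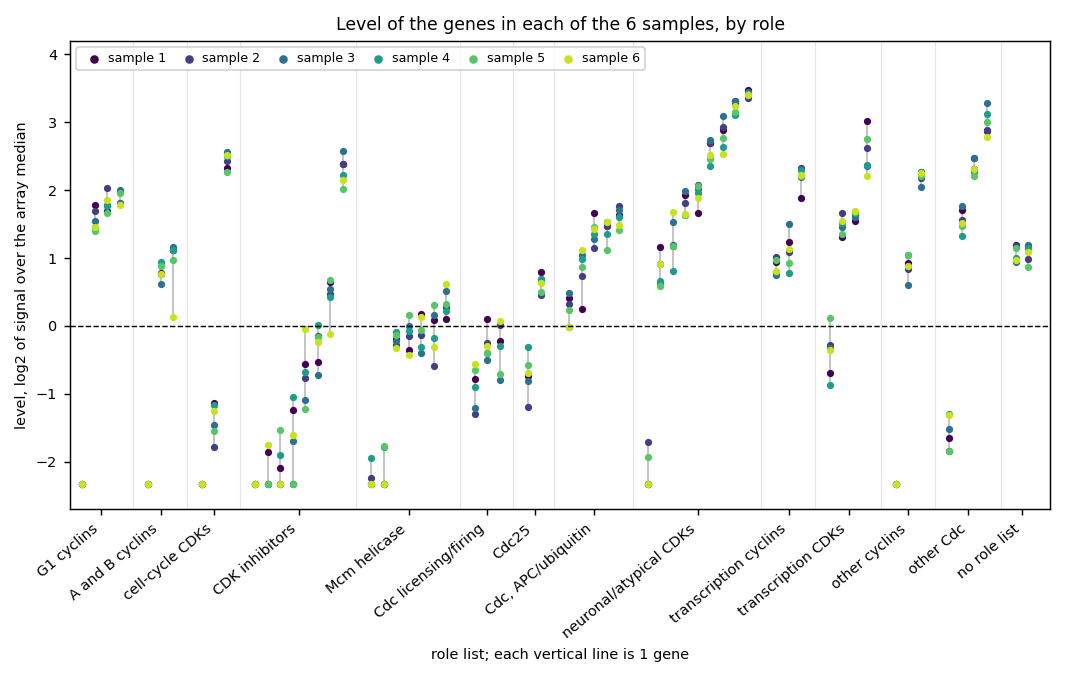
Level of each of the 60 genes in samples 1 to 6 (points, coloured by sample), as log2 of the signal over the array median, by role list; the dashed line at 0 is the array median and the lowest points lie at the floor. All but 1 gene of the Mcm helicase list and all Cdc genes of licensing and firing have their median under the line. Of the 9 neuronal and atypical kinases and partners 8 lie above it.

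The G1 cyclins Ccnd1, Ccnd3 and Ccne1 and the kinase Cdk4 were expressed, with folds of at most 1.29 between samples in the probe sets used. Ccnd1, the cyclin D that answers to growth signals, had signals of 203, 251, 207, 215, 199.9 and 227 in samples 1 to 6. Sample 2 was highest and the other samples lay close together, with a fold of 1.29 between highest and lowest that was 1.14 without sample 2. Ccnd3, a cyclin D often found in differentiated cells, had 215, 199, 174, 174, 167 and 172. It was highest in samples 1 and 2, and its fold was 1.29. Ccne1, which with Cdk2 opens S phase, stayed between 216 and 245. After scaling sample 3 was highest and sample 6 lowest, 1.17-fold apart. Cdk4, the kinase partner of the D cyclins, had 315, 330.1, 355, 358, 303 and 359, lowest in sample 5, with a fold of 1.23. Ccne2, the second E cyclin, lay at the floor in every sample.

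Of the 8 CDK inhibitors 2 were expressed, Cdkn2d and Cdkn2c. Cdkn2d (p19Ink4d), an inhibitor of Cdk4 and Cdk6 known from postmitotic neurons, was bright, at 327, 319, 359, 294, 254 and 278. Sample 3 was highest and sample 5 lowest, 1.49-fold apart, and 1.29-fold without sample 3. Cdkn2c (p18Ink4c), of the same Ink4 family, had 98.3, 85.4, 86.9, 85.4, 101 and 57.7. Sample 6 stood below the other 5, which spanned 1.19-fold, and the whole range was 1.74-fold. In sample 6 the log2 level of Cdkn2c was -0.12, under the array median. Cdkn1a (p21), which stops the cycle downstream of p53, had 43.3, 55.2, 36.2, 64.2, 56.2 and 53.2, under the array median in 5 samples. A second Cdkn1a probe set, also under it in 5 samples, ran in another order. That one went from 9.32 in sample 2 to 68.0 in sample 1, with a range of 2.44. Cdkn1c (p57), an inhibitor of the same Cip/Kip family, lay below the array median throughout, lowest in sample 5 (27.1) and highest in sample 6 (60.9). Cdkn1b (p27), also of that family, had 14.7, 8.63, 1.86, 17.0, 21.9 and 9.15. Cdkn2a, which encodes p16Ink4a and p19Arf, stayed at or under 30.7, and Cdkn2b (p15Ink4b) at or under 18.7. Cdkn3, a phosphatase that acts on CDKs, did not pass 4.59.

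Of the cyclins of S phase and mitosis, Ccna2 had the widest range of all 36 expressed genes. Its signals were 136, 133, 133, 137 and 124 in samples 1 to 5 and 68.6 in sample 6. The first 5 samples lay within 1.14-fold, and sample 6 brought the range to 2.04-fold (1.03 on the log2 scale). Ccna2 encodes cyclin A2, the partner of Cdk2 in S phase and of Cdk1 before mitosis. Ccnb2, a mitotic cyclin B, did not share the low value, with 108, 104, 92.3, 121, 116 and 107, a fold of 1.24, and 1.13 without sample 3. Cdk1, the kinase of mitosis, lay at the floor in all samples with signals between 3.88 and 9.06. Cdk2 stayed between 17.9 and 28.7, under the array median, and Ccna1, the cyclin A of the germ line, did not pass 11.3.

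Sample 6, in which Ccna2 and Cdkn2c stood low, also had the highest summed level of the choroid plexus markers (Ttr, Folr1, Kl, Aqp1 and Cldn2, of which Ttr and Folr1 were expressed). That sum, in units of the array median, was 2.13, 2.29, 5.59, 28.5, 11.5 and 33.9 in samples 1 to 6. Ttr, Folr1 and Kl were highest in sample 6, but Aqp1 was highest in sample 1 and Cldn2 in sample 4. In sample 4, with the second highest sum, Ccna2 had a signal of 137 and Cdkn2c one of 85.4. Other tissue differed too. The 6 markers of meninges and fibroblasts summed to 96.9, 113, 57.3, 62.0, 48.6 and 92.2, highest in sample 2. The part of the choroid plexus or of the meninges in the values of Ccna2 and Cdkn2c was not tested. The 7 markers of dividing cells, of which 0 were expressed, summed to between 1.73 and 1.99.

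The Mcm helicase and the licensing factors lay around or under the array median. Mcm5 was the 1 expressed subunit, at 67.2, 74.2, 85.3, 73.7, 79.3 and 96.4, highest in sample 6 and lowest in sample 1, 1.43-fold apart. A further Mcm5 probe set, whose name marks shared or less specific probes, was dim, with signals from 6.21 to 42.3. Its log2 median was -2.12 and its peak was in sample 4. The level and sample order of Mcm5 given here thus rest on the probe set used. Mcm2, which carries histones at the fork, had 71.1, 55.7, 45.5, 50.9, 60.7 and 68.8. Mcm4, one of the catalytic core, had 66.6, 40.8, 66.7, 56.0, 77.9 and 50.5. Their orders differed: sample 1 was highest for Mcm2 and lowest for Mcm5, and sample 5 was highest for Mcm4. Mcm3 had its low in sample 6 (46.5) and its high in sample 5 (70.8), and Mcm7 stayed between 50.3 and 59.8. Mcm6 (7.60 to 18.6) and Mcm10 (5.37 to 16.4), a factor that activates the helicase, were near the floor. Although all 6 subunits of the Mcm2 to Mcm7 ring are needed in equal number, Mcm6 was near the floor while Mcm5 was above the median, and such a gap between probe sets does not measure a gap in RNA. Cdc6, the loader, had 36.5, 24.9, 26.0, 34.0, 40.4 and 42.5. Cdc7, the kinase that fires origins, ran from 42.4 to 67.6, and Cdc45, which completes the active helicase, from 34.6 to 66.4.

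All 5 Cdc genes of the anaphase-promoting complex and of ubiquitin transfer were expressed. This ubiquitin ligase drives cells out of mitosis and also works in neurons. Cdc23, one of its core subunits, had 74.5, 102, 123, 125, 115 and 137. Sample 1 was lowest and sample 6 highest, 1.83-fold apart, and without sample 1 the fold was 1.31. Cdc26, a small subunit, went the other way in sample 1, with 199.6, 135, 146, 161, 173 and 169, a fold of 1.44, and 1.25 without that sample. Cdc16, another core subunit, had 174, 170.3, 174, 161, 137 and 182, with sample 5 low and a fold of 1.34 that was 1.14 without it. Cdc20, the activator in mitosis, lay close to the median at 83.7, 76.8, 84.0, 62.5, 74.6 and 61.9. Samples 4 and 6 were lowest, both just under the array median, and the fold was 1.42. Cdc34, the ubiquitin-conjugating enzyme of SCF ligases, had its low of 169 in sample 5 and its high of 209 in sample 2 (1.27-fold). Cdc25a, a phosphatase that activates CDKs, had 84.1 in sample 2 and 109 in sample 1 as its extremes, also 1.27-fold, and Cdc25c stayed at or under 51.3.

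Sample 1, lowest for Cdc23 and Mcm5 in the probe sets used, also had the lowest summed levels of choroid plexus markers (2.13) and of myelin markers. The 8 myelin markers on the array, 7 of them expressed, summed to 75.2, 80.2, 102, 96.0, 104 and 98.0. Single markers did not all share this low. After scaling, Ttr and Folr1 were lowest in sample 1, but Kl was lowest in sample 2, and Aqp1 peaked in sample 1. Of the expressed myelin markers, Mbp, Mag, Cldn11 and Ugt8a were lowest in sample 1, and Mog, Mobp and Mal in sample 2. Sample 1 also had the lowest sum of microglia markers (32.5) and the highest of endothelium markers (9.04). The part of any of these tissues in the values of Cdc23 and Mcm5 was not tested.

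Cdk5 and most of its kin were bright. Cdk5, the neuronal kinase of migration and synapses, had 625, 596, 592, 543, 559 and 593. No sample stood apart, and the fold was 1.16. Cdk5r1 (p35), its activator, had 199, 259.8, 241, 245, 263 and 233, low in sample 1, with a fold of 1.34 that was 1.14 without that sample. Cdk5r2 (p39), the second activator, was near the floor, between 4.04 and 18.7. Cdk14, a membrane-linked kinase of Wnt signalling, had 697, 630.2, 651, 667, 670.1 and 661, and its fold of 1.08 was the smallest of the 36 genes. Only 0.89% of all expressed genes had a range as small or smaller. Cdk16, a kinase of neurite growth and vesicle traffic, had 464, 465, 513, 394, 429 and 362. It was highest in sample 3 and lowest in sample 6, 1.49-fold apart. Cdk18, its relative, had 239, 215, 239, 197, 197 and 196, highest in samples 1 and 3 and near 197 in samples 4 to 6, with a fold of 1.28.

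Among the binding proteins, Cdk5rap3, a Cdk5-associated protein of the ufmylation pathway, had 142, 141, 174, 111, 143 and 201. Sample 6 was highest and sample 4 lowest, 1.82-fold apart, and 1.41-fold without sample 4. Cdk2ap1, which binds Cdk2, had 407, 395, 399, 323, 348 and 358, lowest in sample 4, with a fold of 1.31. Its relative Cdk2ap2 had 141, 115, 92.7, 99.8, 95.3 and 118, high in sample 1, with a fold of 1.48 that was 1.24 without it.

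Cdk9 and its cyclin Ccnt1, which together form the elongation factor P-TEFb that releases paused RNA polymerase II, both ranged widely but in different orders. Cdk9 had 509, 376, 306, 329, 427 and 290.5. Samples 1 and 5 were high and sample 6 was low, 1.75-fold apart. Ccnt1 had 149, 131, 169, 109, 120.1 and 138, highest in sample 3 and lowest in sample 4, 1.63-fold apart and 1.37-fold without sample 3. Sample 5, second highest for Cdk9, was second lowest for Ccnt1. Cdk8 and Ccnc, kinase and cyclin of the Mediator complex, were steady, with Cdk8 between 183 and 204 (1.11-fold) and Ccnc between 101 and 124 (1.21-fold). Cdk11b, a kinase of splicing, ran from 156 to 195 (1.28-fold, and 1.17-fold without sample 2). Ccnl2, a cyclin of splicing that can pair with it, had 232, 309, 274, 312, 293 and 294. Sample 1 stood below the other 5, which lay within 1.10-fold, and the whole range was 1.36-fold. Cdk7, the kinase that activates other CDKs, lay mostly under the array median, between 34.6 and 68.4.

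Of the genes with other roles, Ccng1, a p53 target, had 119, 110.1, 90.8, 131, 131 and 116, low in sample 3, with a fold of 1.36 that was 1.15 without it. Ccng2, a cyclin linked to cell-cycle exit, was also lowest in sample 3 (247 against 277 to 303, 1.17-fold, and 1.07-fold without it). Cdc37, the partner of Hsp90 that folds kinases such as Cdk4, had 459, 453, 586, 551, 505 and 432. It was highest in sample 3, 1.42-fold above sample 6. Cdc5l, a splicing factor, had 205 in sample 1 and 204 in sample 3, the highest after scaling and 1.35-fold above sample 4 (159). Cdc123, a factor of translation initiation, ran from 292 to 342 (1.21-fold). Mcm3ap, which works in mRNA export and is no helicase subunit, ran from 115 to 144 (1.20-fold). Cdkn2aipnl, a relative of a protein that binds p19Arf, ran from 115 to 142 (1.26-fold, and 1.16-fold without sample 5). Cdc73, a subunit of the Paf1 complex of transcription, stayed between 17.2 and 25.9, and Ccnb1ip1, a ubiquitin ligase of meiosis, at the floor.

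The 36 expressed genes varied between samples about as much as expressed genes in general. Their median range was 0.40 on the log2 scale, the same as the 0.40 of all 4838 expressed genes. A range over 0.5 was reached by 13 of the 36 (36.1%), against 33.9% of all expressed genes. Besides the genes with the widest ranges, Ccna2, Cdc23, Cdk5rap3, Cdk9, Cdkn2c and Ccnt1, these were Cdkn2d, Cdk16, Cdk2ap2, Cdc26, Mcm5, Cdc37 and Cdc20. Without sample 3 the count was 8 (22.2%), and the share of all expressed genes 27.0%. A range over 1 was reached by Ccna2 alone (2.78% of the 36, against 4.2%), and by 0 genes without sample 3 or sample 6 or with no scaling beyond the deposited values. In 3 of the 36 (8.33%, against 5.89% of all expressed genes) 1 sample lay apart from the other 5 by more than Dixon's 95% critical value for a share of the range: Ccna2 and Cdkn2c in sample 6 and Ccnl2 in sample 1. By level, the median range of the 36 was 0.51 for the 9 genes with a median between 0 and 1, 0.37 for the 16 between 1 and 2 and 0.39 for the 11 above 2. The same medians over all expressed genes were 0.53, 0.41 and 0.32. Cdk9, with a level of 2.50, had a range of 0.81, above the 95th percentile (0.71) of all genes above 2.

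**Figure D2:**
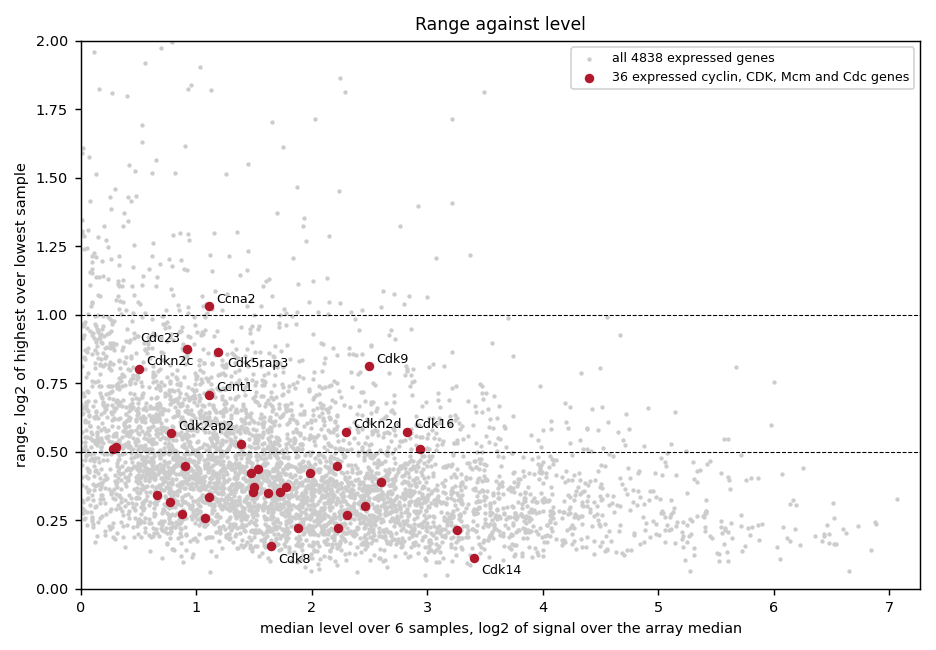
Range (log2 of highest over lowest sample) against median level (log2 of signal over the array median) for all 4838 expressed genes (grey) and the 36 expressed cyclin, CDK, Mcm and Cdc genes (red), with dashed lines at 0.5 and 1; 25 grey genes lie above the top of the axis at 2. The red points fall within the grey cloud, with Ccna2 at the top (1.03) and Cdk14 at the bottom (0.11).

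**Figure D3:**
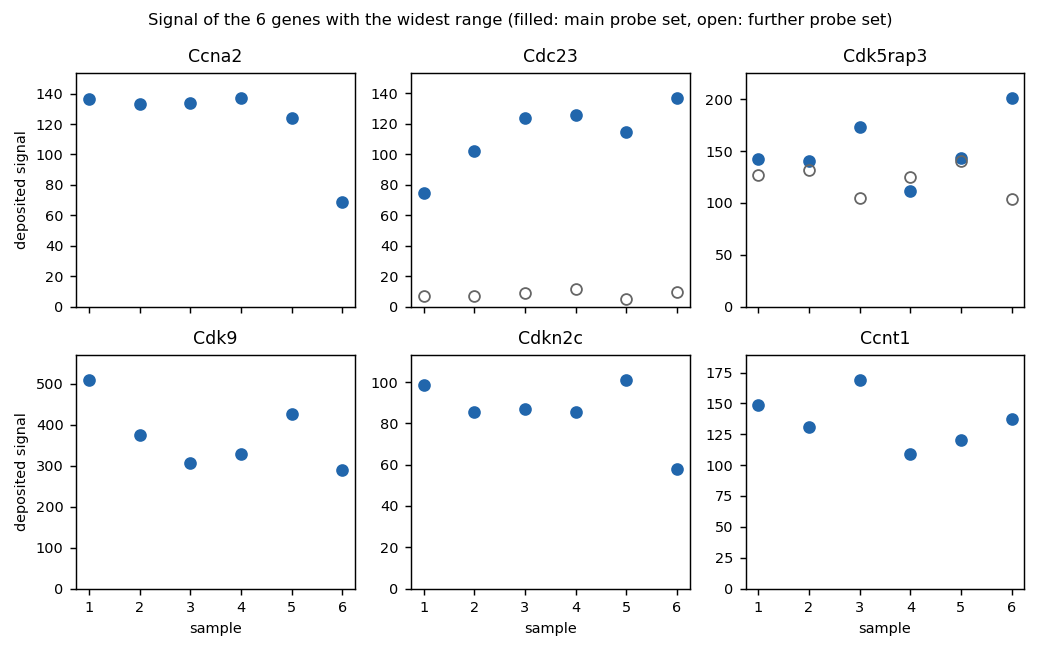
Deposited signal in samples 1 to 6 for the 6 genes with the widest range, each on its own axis from 0; filled points are the probe set used and open points a further probe set of the same gene. Sample 6 is low for Ccna2 and Cdkn2c and sample 1 for Cdc23, and samples 3 and 6 are high in 1 Cdk5rap3 probe set and low in the other.

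The highest and the lowest values of the expressed genes were spread over all 6 samples. After scaling, the highest value fell in sample 1 for 9 genes, in sample 2 for 6, in sample 3 for 14, in sample 4 for 1 (Ccnb2), in sample 5 for 2 and in sample 6 for 4. The shares of all expressed genes with their highest value in samples 1 to 6 were 17.3%, 15.6%, 31.1%, 12.6%, 12.1% and 11.4%. Sample 3 thus led among the 36 genes (38.9%) and among all genes alike, and this rested on the scaling: with quantile normalization 6 of the 36 were highest there, and with no scaling 5, against 19.5% and 19.1% of all genes. The array of sample 3 had the lowest median, 59.9. Other counts moved too: sample 1 led with 13 genes under both of these scalings, and with 18 when sample 3 was left out. Sample 4 went from 1 to 4 with quantile normalization and to 5 with no scaling. The shares of all genes for samples 1 and 4 under these settings are not given here. These shifts are therefore not read as particular to the 36 genes. The lowest value fell in samples 1 to 6 for 6, 3, 5, 6, 9 and 7 genes, where all expressed genes gave 21.6%, 11.6%, 11.1%, 20.7%, 20.0% and 15.0%. Under all 3 scalings 33 of the 36 genes kept their lowest sample and 23 their highest. Both were kept for 21 genes, among them Cdc23, Cdk5rap3, Cdk9, Cdkn2c and Ccnt1. No share of all genes stands beside these counts of kept samples either. For Ccna2 the lowest sample was kept, and the highest was sample 3 or, with no scaling, sample 4.

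**Figure D4:**
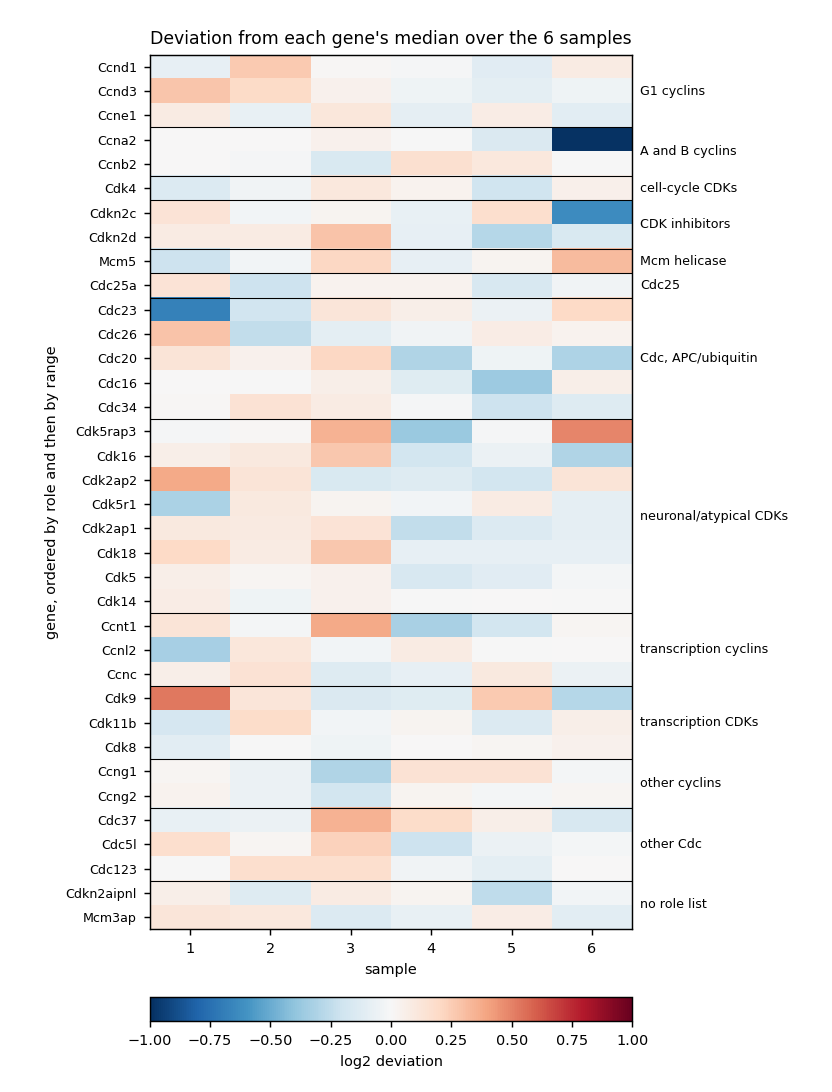
Log2 deviation of each of the 36 expressed genes from its own median over the 6 samples (red higher, blue lower), with genes in rows by role and samples in columns. Most cells are pale, no column is of a single colour, and the darkest cells are Ccna2 and Cdkn2c in sample 6 and Cdc23 in sample 1.

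RNA quality could be read only from the control probe sets. For pyruvate carboxylase the ratio of 3' to 5' signal was 2.35, 1.57, 3.56, 1.97, 1.62 and 2.61 in samples 1 to 6, and for the transferrin receptor it was highest in sample 3 (3.47) and lowest in sample 1 (2.54). Sample 3 was also where Ccnt1, Cdc20, Cdc37, Cdk16 and Cdkn2d were highest, and Ccnb2, Ccnc, Ccng1, Ccng2 and Mcm3ap lowest, under all 3 scalings. The beta-actin ratio ran from 1.11 in sample 2 to 1.27 in sample 1, where Cdk9 was highest and Cdc23 lowest. The part of these differences in the ranges was not tested.

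Further probe sets did not always bear out the one used. Of the 60 genes 15 had several probe sets, and 5 had at least 2 that were expressed (Cdc5l, Cdk11b, Cdk14, Cdk4 and Cdk5rap3). Cdk5rap3 had a second one of like signal, at 127, 132, 105, 125, 140.2 and 104. Its low samples, 3 and 6, were the high ones of the first, and with the mean of both the range of Cdk5rap3 went from 0.86 to 0.31. The second probe set of Cdk4 (67.2 to 103) was lowest in sample 5 as the first was, but highest in sample 2, with a range of 0.66 against 0.30. That of Cdk14 (103 to 155) had a range of 0.52 against 0.11, so the steadiness of Cdk14 held for 1 of its 2 probe sets. For Cdc5l the second was lowest in sample 6 (66.3), not in sample 4. For Cdk11b a further expressed probe set, whose name marks shared probes, was highest in sample 3 (112) and lowest in sample 4 (75.7), unlike the first. The second probe set of Ccnd1 lay mostly under the array median (27.6 to 79.3) with a range of 1.52, and that of Cdc23 was at the floor throughout. Ccna2, Cdkn2c, Cdk9 and Ccnt1 had 1 probe set each.

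The other genes of the cell-cycle pathway likewise held both expressed and dim genes. Beside the counts of expressed genes here and in the next paragraph stands the 58.6% of all named genes that were expressed. Of the Rb and E2F genes 7 of 11 were on the array and 2 were expressed: E2f5, a repressor E2F, at 62.6, 68.6, 49.7, 76.9, 71.7 and 61.8 (1.47-fold), and Tfdp1, the E2F partner (1.16-fold). For the origin recognition complex and the replication fork 28 of 33 were on the array and 10 were expressed, with a median range of 0.53, and 6 of the 10 ranged by over 0.5, where 33.9% of all expressed genes did. The widest was Tk1, the thymidine kinase of S phase, at 123, 91.9, 78.3, 42.5, 82.0 and 85.7. Sample 4 was lowest, under the array median, and sample 1 highest, 2.92-fold apart.

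Of the mitosis and proliferation genes 19 of 20 were on the array and 5 were expressed (Foxm1, Plk1, Pttg1, Incenp and Bub3), with a median range of 0.31 and 2 over 0.5 (33.9% of all expressed genes, as for the lists that follow). Foxm1, a transcription factor of mitotic genes, ranged most, with 123, 110.0, 175, 178, 168 and 155, low in samples 1 and 2 (1.63-fold). For the p53 response 5 of 6 genes on the array were expressed, of 10 listed, with a median range of 0.49 and 1 over 0.5. Phlda3, an inhibitor of Akt induced by p53, was the widest, from 109 in sample 1 to 157 in sample 3 (1.52-fold). Of the SCF and anaphase-promoting ligase genes 8 of 14 were on the array and 6 were expressed, with a median range of 0.30 and 1 over 0.5. That was Skp1, the adaptor of SCF ligases, at 673, 1098, 816, 1044, 989.5 and 988, low in sample 1 (1.67-fold).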

How the data were processed

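The deposited tables hold linear signal intensity values, 1 for each of 12488 probe sets (66 of them controls) on each of 6 arrays. How the authors summarised and scaled these intensity values is not stated in the labels. No 2 arrays were identical. Of the probe sets that are not controls, 10833 have 1 gene symbol in the platform annotation, 396 several and 1193 none. All 60 genes matched the mouse RefSeq table (GRCm38.p6) by gene identifier, with 0 symbols changed. Each array was divided by its median, floored at 0.2 of it and put on the log2 scale, with Python 3.11.15, numpy 2.4.6 and pandas 2.3.3. The labels assign no sample to a genotype, so counts, medians and ranges are descriptions without tests between groups, and Dixon's critical value served to mark single samples. The code for the ranges was run on simulated data with large known changes of single samples in bright genes. That check does not cover the smaller ranges or the dim genes described here. The members, the role and pathway lists, the rule for named genes (every expressed member and fixed core genes; the widest expressed gene of each pathway list) and the alternatives were chosen with earlier results of these data known. Tfdp1, Plk1, Pttg1, Incenp and Bub3 are named outside that rule, after their values were seen. The promoter words were chosen after the values were seen. Promoter sequences are from RefSeq. The number of arrays limits the precision.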

Additional observations from a re-analysis of the deposited data

Results flagged for a closer look

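For 3 of the 36 expressed genes (8.33%, against 5.89% of all expressed genes) 1 sample stood apart, by a gap to the nearest sample above Dixon's 95% critical value as a share of the range. The share was 0.822 for Ccna2 in sample 6, 0.693 for Cdkn2c in sample 6 and 0.687 for Ccnl2 in sample 1, each of them low. Chance marks about 1 in 20 such sets of values. The 6 samples have no known groups, and genotypes can be mixed among them. Each gene rests on 1 probe set. The range of Ccna2 was 1.03, 1.00 with quantile normalization and 0.998 with no scaling.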

How the results depend on the processing

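Alternatives were run one at a time on the count of expressed genes, their median range, the counts past each size and the count highest in sample 3. The median range stayed between 0.34 and 0.48 in all of them. Apart from the setting with no expression filter, the count of expressed genes stayed between 32 and 37. It was 32 with the mean of probe sets, where 52.3% of all named genes were expressed. With no expression filter all 60 genes entered, 30 (50.0%) ranged by over 0.5 and 3 by over 1, where all named genes gave 45.0% and 12.9%. With no scaling 0 ranged by over 1. The share over 0.5 fell below that of all expressed genes with the other scalings. It was 9 genes (25.0%, against 33.1%) with quantile normalization and 11 (30.6%, against 33.3%) with no scaling. The count highest in sample 3, 14, became 6 with quantile normalization and 5 with no scaling. Leaving out 1 sample at a time gave 8 (without sample 3) to 13 genes over 0.5 and 0 (without sample 3 or 6) to 1 over 1. The cause of these shifts was not tested, but a range over fewer samples can only be equal or smaller. Of the 36 single ranges, 7 moved by over 1.5 times with the mean of probe sets (Ccnd1, Cdc23, Cdc25a, Cdc34, Cdk14, Cdk5rap3 and Mcm5) and 0 with the other scalings, floors and filters. Only a gene with several probe sets can move with that mean. Of such genes among the 36, only Cdc5l, Cdk11b and Cdk4 did not move. The share of all expressed genes that moved is not given here. Signal over background was not known, which limits all genes near the array median.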
